A study of Mus musculus with 11 samples.

Results

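Transcripts of 8 genes that mark mast cells and basophils were followed in 11 bulk RNA-seq libraries of mouse acute myeloid leukaemia (AML). The genes were taken by name: Cpa3, Mcpt8, Prss34, Tpsb2 and Cma1, which encode granule proteases, Fcer1a and Ms4a2, which encode subunits of the high-affinity IgE receptor, and Hdc, which encodes the histamine-forming enzyme. All 8 were found among the 55487 genes of the count table, and all 8 passed the low-count filter that left 14521 genes for testing. Gata2, a transcription factor of stem cells, mast cells and basophils, and Gzmb, a granule protease of cytotoxic cells that mast cells can also make, were read beside them.

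According to the labels, every leukaemia carried Flt3-ITD, an activating duplication in a growth factor receptor, together with NHD13, the NUP98-HOXD13 fusion. Ifnar1, which encodes a subunit of the type I interferon receptor, was labelled +/- in 6 libraries and -/- in 5, so there was no Ifnar1 +/+ group. The series' design text speaks of HPCs, whereas each library is labelled AML. Age, sex, the promoter behind NHD13 and the way cells were purified were not given in the sources used here, and nothing said whether the libraries of a genotype came from separate mice. The p-values below therefore measure only the spread between these libraries.

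Each library held between 25583642 and 38728143 estimated counts, and between 13293 and 14754 genes had at least 10. Counts of Ifnar1 itself did not separate the labels: the libraries labelled Ifnar1 +/- lay between 39.2 and 84.4 CPM (read counts scaled to library size), and those labelled Ifnar1 -/- between 36.2 and 133 CPM. This count covers the whole gene, and which part of it the allele lacks was not given, so it does not check the labels. Genotypes below are therefore those of the labels. Library 2 labelled Ifnar1 -/- stood apart, with 47606 CPM of Prg2, the eosinophil major basic protein gene, against at most 1164 CPM in the other 10 libraries. A high group of 5 libraries, numbers 3, 4 and 5 labelled Ifnar1 +/- and numbers 3 and 5 labelled Ifnar1 -/-, had between 530 and 744 CPM of Ebf1, a B-lineage transcription factor, and the other 6 had at most 8.71 CPM.

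Mast cells and basophils are granulocytes that arise from related bone marrow progenitors, and Gata2 is needed for both lineages. Their granules store proteases bound to the proteoglycan serglycin together with histamine, and the cells release them when antigen crosslinks IgE held by the high-affinity receptor. In mice, Cpa3, tryptases and chymases are abundant in mast cells, whereas Mcpt8 and Prss34 are used as basophil markers. GATA factors bind DNA elements with the core letters GATA.

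The region around the annotated start, from 250 bases before to 50 bases after it, was read for 7 of the 8 genes from RefSeq on build GRCm38.p6. The 4 sequences here are shown because they pair a mast cell protease and a receptor subunit whose levels correlated with Gata2 across libraries, Cpa3 and Ms4a2, with the basophil proteases Mcpt8 and Prss34, whose correlation with Gata2 did not pass the test. Each is on the gene's own strand, and capitals mark GATAA or its reverse complement TTATC. Cpa3 is at chr3:20242132-20242431 on the minus strand, Ms4a2 at chr19:11623670-11623969 on the minus strand, Mcpt8 at chr14:56085148-56085447 on the minus strand and Prss34 at chr17:25298144-25298443 on the plus strand.
Cpa3: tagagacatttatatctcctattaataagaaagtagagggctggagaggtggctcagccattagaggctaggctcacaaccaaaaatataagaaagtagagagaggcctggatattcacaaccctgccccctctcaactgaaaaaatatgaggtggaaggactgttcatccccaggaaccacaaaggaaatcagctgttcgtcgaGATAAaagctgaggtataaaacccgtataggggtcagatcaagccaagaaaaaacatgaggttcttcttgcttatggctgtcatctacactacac
Ms4a2: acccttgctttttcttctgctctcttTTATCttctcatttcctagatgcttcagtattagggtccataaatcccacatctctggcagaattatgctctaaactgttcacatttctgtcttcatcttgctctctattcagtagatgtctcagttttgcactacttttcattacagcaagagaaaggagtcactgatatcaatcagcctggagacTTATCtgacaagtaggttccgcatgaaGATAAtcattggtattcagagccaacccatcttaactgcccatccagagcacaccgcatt
Mcpt8: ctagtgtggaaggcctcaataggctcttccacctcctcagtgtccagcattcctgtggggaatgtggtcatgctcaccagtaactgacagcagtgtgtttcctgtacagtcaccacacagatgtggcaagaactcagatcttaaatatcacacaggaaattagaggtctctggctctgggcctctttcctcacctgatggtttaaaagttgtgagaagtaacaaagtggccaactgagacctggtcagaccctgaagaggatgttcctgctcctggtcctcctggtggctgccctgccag
Prss34: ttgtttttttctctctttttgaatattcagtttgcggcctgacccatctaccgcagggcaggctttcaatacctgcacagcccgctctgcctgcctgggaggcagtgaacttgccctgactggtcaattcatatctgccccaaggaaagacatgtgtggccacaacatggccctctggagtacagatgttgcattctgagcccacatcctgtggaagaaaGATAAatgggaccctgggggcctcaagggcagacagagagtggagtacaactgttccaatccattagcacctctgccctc
Positions count from the annotated start, with negative values upstream. The Cpa3 window held 1 match, at -45. The Ms4a2 window held 3, at -224, -37 and -10, and 0.938% of 32851 promoter windows of this length held 3 or more. Prss34 also held 1, at -30, and Mcpt8 held none. Among the other genes, Fcer1a and Cma1 each had 1 match, at -92 and -194, and Gzmb had none. Hdc, whose levels had the highest correlation with Gata2 (r of 0.96), also had none. At least 1 match was present in 25.4% of all 32851 windows, with both strands searched, so 5 of the 7 windows stood beside a common background. The letters TGTGGT and TTCNNNGAA were also searched, and were present in 16.8% and 8.30% of all windows. TGTGGT had 2 matches in Mcpt8, 1 each in Fcer1a, Cpa3 and Cma1, and none in Ms4a2, Prss34 and Hdc. TTCNNNGAA had none in any of these 7 genes. A match is a run of letters and not a measured binding site.

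Levels of all 8 genes varied widely among libraries of the same genotype, and no genotype difference passed the test across all genes. On the log2(CPM + 1) scale, the SD over the 11 libraries ran from 1.77 for Mcpt8 to 2.73 for Fcer1a, against 0.52 for the median tested gene. These SDs lay between the 94.1st percentile, for Mcpt8, and the 99.1st percentile, for Fcer1a, of all tested genes. The summed level of the 8 genes ran from 156 to 12255 CPM in the libraries labelled Ifnar1 +/- and from 504 to 8337 CPM in those labelled Ifnar1 -/-. In bulk RNA, fewer cells of a type and less RNA per cell cannot be told apart.

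**Figure D1:**
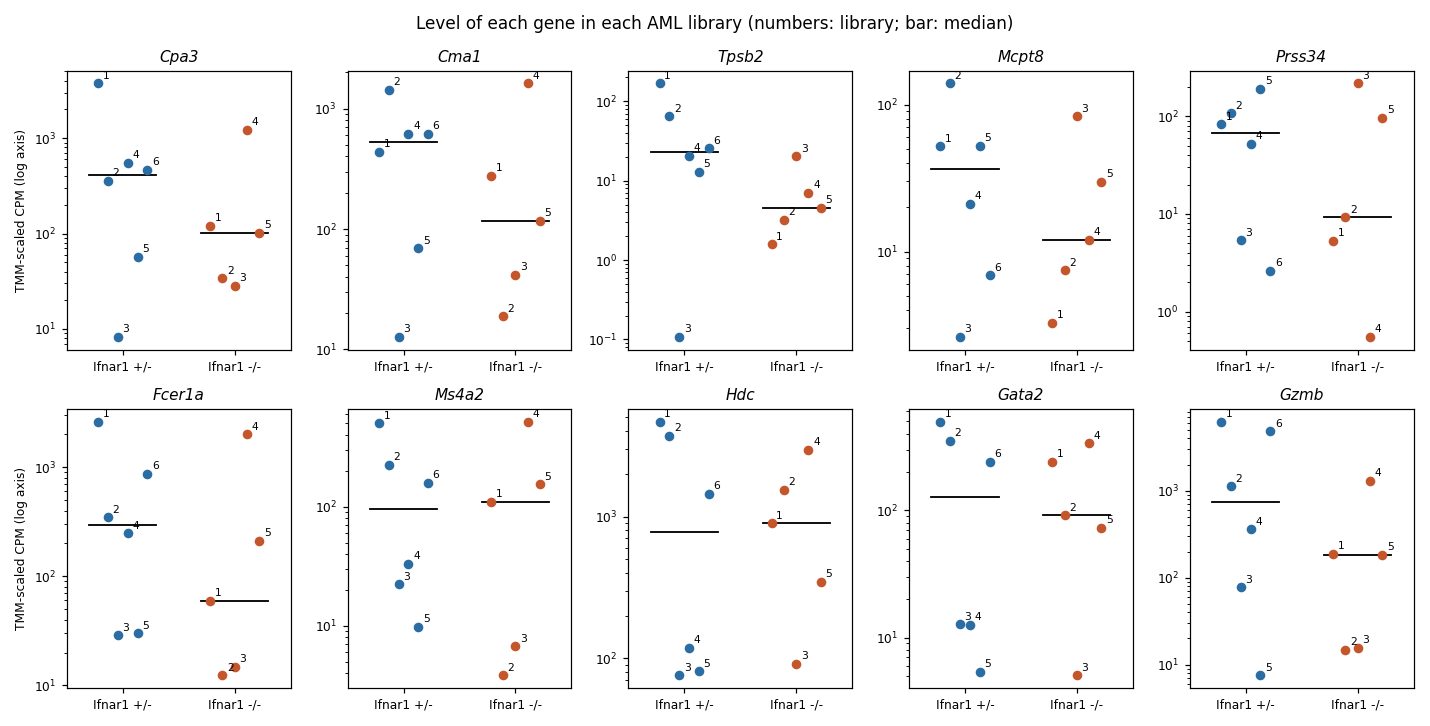
Level of the 8 genes, Gata2 and Gzmb in each library, in TMM-scaled CPM on a log axis, with libraries labelled Ifnar1 +/- (n = 6) and Ifnar1 -/- (n = 5) side by side; points are libraries with their numbers and bars are medians. In all 10 panels the genotypes overlap, and Cpa3 runs from 8.27 to 3745 CPM within the Ifnar1 +/- libraries alone.

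Cpa3 encodes carboxypeptidase A3, a major protease of mast cell granules (ENSMUSG00000001865, chr3:20215620-20242181). Its level in the libraries labelled Ifnar1 +/- was 8.27 CPM at the lowest, 414 CPM at the median and 3745 CPM at the highest. Libraries 1 to 5 labelled Ifnar1 -/- had 121, 33.9, 28.3, 1225 and 101 CPM. The highest library was number 1 labelled Ifnar1 +/- and the next was number 4 labelled Ifnar1 -/-. All 5 Ifnar1 -/- libraries lay within the range of the Ifnar1 +/- libraries. Means were 865 ± 1428 CPM (SD, n = 6) and 302 ± 518 CPM (SD, n = 5). The log2 fold change, Ifnar1 -/- against Ifnar1 +/-, was -1.52 with a standard error of 1.41 and did not pass edgeR's quasi-likelihood test (Benjamini-Hochberg adjusted p = 0.9998). A two-sided exact permutation test of mean log2(CPM + 1) gave p = 0.494. The edgeR fold change was 0.067 without library 1 labelled Ifnar1 +/- and -3.60 without library 4 labelled Ifnar1 -/-, so its sign and size rested on single libraries.

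Cma1 encodes mast cell chymase (ENSMUSG00000022225, chr14:55941451-55944675). Among the libraries labelled Ifnar1 +/- it ran from 12.7 through a median of 527 to 1432 CPM. In those labelled Ifnar1 -/-, in library order, it stood at 277, 18.8, 41.5, 1616 and 117 CPM. Library 4 labelled Ifnar1 -/- was the highest of all 11, ahead of library 2 labelled Ifnar1 +/-, and library 3 labelled Ifnar1 +/- was the lowest. With a standard error of 1.22, the log2 fold change of -0.36 did not pass the test either (edgeR adjusted p = 0.9998), nor did the exact permutation test (p = 0.574). Means were 531 ± 514 CPM (SD, n = 6) and 414 ± 679 CPM (SD, n = 5). The fold change became -2.23 without library 4 labelled Ifnar1 -/-. Cma1 belongs to a family of similar genes and its estimated count was not a whole number in 3 libraries, so some of its reads may have been shared with a related gene.

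The ratio of Cma1 to Cpa3 CPM lay between 0.554 and 3.98 in 10 libraries, and it was 0.116 in library 1 labelled Ifnar1 +/-, the library with the most Cpa3. Cma1 ranked 5th among the 11 libraries there. High Cpa3 and high Cma1 did not always come together.

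Tpsb2 encodes a tryptase of mast cell granules (ENSMUSG00000033825, chr17:25366305-25369098). Its fitted genotype difference was the largest in size among the 8 genes in edgeR over all libraries without a block. Without library 4 labelled Ifnar1 -/-, Cpa3 (-3.60 on the log2 scale) and Fcer1a (-3.21) exceeded Tpsb2 (-2.72). In limma-voom, Prss34 (-1.97), Hdc (1.88) and Ms4a2 (1.70) were larger in size than Tpsb2 (-1.10). With the replicate block, Prss34 had -2.71 against -2.30 for Tpsb2. In the libraries labelled Ifnar1 +/-, its lowest, median and highest levels were 0.108, 23.0 and 168 CPM, the lowest resting on 3 counts. Those labelled Ifnar1 -/- had 1.57, 3.19, 20.3, 7.07 and 4.53 CPM. Of the 6 Ifnar1 +/- libraries, 5 lay at or above 13.01 CPM, while library 3 of the other genotype reached 20.3 CPM, so the groups overlapped. Means were 48.7 ± 62.3 CPM (SD, n = 6) and 7.33 ± 7.51 CPM (SD, n = 5). The log2 fold change was -2.73 with a standard error of 1.23, with an unadjusted p of 0.0494 and an adjusted p of 0.9998 over all tested genes in edgeR. An unadjusted p under 0.05 was found for 1.99% of all tested genes, 289 in number, and Tpsb2 was the only member among them. A two-sided exact permutation test of mean log2(CPM + 1) gave p = 0.177. The exact permutation test gave p = 0.344 with a pseudocount of 0.1 CPM, p = 0.0159 without library 3 labelled Ifnar1 +/-, and between 0.129 and 0.317 when any other library was left out. The log2 fold change was negative in each of the 18 alternative fits, between -3.55 and -1.76 when 1 library at a time was left out.

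Mcpt8 encodes a basophil granule protease (ENSMUSG00000022157, chr14:56082166-56085273). The libraries labelled Ifnar1 +/- had 2.62 CPM at the lowest, 36.5 CPM at the median and 139.5 CPM at the highest. Libraries 1 to 5 labelled Ifnar1 -/- had 3.27, 7.47, 83.6, 12.1 and 29.8 CPM. Its highest libraries, number 2 labelled Ifnar1 +/- and number 3 labelled Ifnar1 -/-, came from different genotypes, and the latter had little Cpa3 or Fcer1a. The fitted log2 fold change was -0.75 with a standard error of 1.02 (edgeR adjusted p = 0.9998; exact permutation p = 0.587). Means were 45.8 ± 50.7 CPM (SD, n = 6) and 27.2 ± 33.1 CPM (SD, n = 5). Without library 2 labelled Ifnar1 +/- the log2 fold change was 0.011, and without library 3 labelled Ifnar1 -/- it was -1.76.

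Prss34 encodes a serine protease of basophils (ENSMUSG00000056399, chr17:25298394-25300165). Levels under the label Ifnar1 +/- spanned 2.63 to 191 CPM around a median of 67.5 CPM. Under the label Ifnar1 -/-, the 5 libraries had 5.33, 9.22, 217, 0.552 and 96.5 CPM. Library 4 labelled Ifnar1 -/- was the lowest of all 11 for Prss34, at 15 counts, although it was the highest or second highest for Cma1, Ms4a2, Cpa3 and Fcer1a. Library 3 of that genotype showed the reverse, with the most Prss34 and the second lowest Cpa3. Prss34 averaged 73.7 ± 71.1 CPM (SD, n = 6) and 65.6 ± 93.2 CPM (SD, n = 5). Its log2 fold change of -0.17 had a standard error of 1.33 (edgeR adjusted p = 0.9998; exact permutation p = 0.539), and it was -1.36 without library 3 labelled Ifnar1 -/- and 0.40 without library 5 labelled Ifnar1 +/-.

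Prss34 and Mcpt8 were set beside Cpa3 and Cma1 in each library. The ratio of Prss34 to Mcpt8 CPM ran from 0.046 in library 4 labelled Ifnar1 -/- to 3.65 in library 5 labelled Ifnar1 +/-. Whether Prss34 and Mcpt8 moved together was not tested. The ratio of Prss34 to Cpa3 CPM ran from 0.00045 in library 4 labelled Ifnar1 -/- to 7.64 in library 3 of the same label. Per kilobase of exon, Prss34 exceeded Cpa3 in 3 of the 11 libraries: library 5 labelled Ifnar1 +/- (157 against 37.8 CPM per kb) and libraries 3 (177 against 18.7) and 5 (79.1 against 66.7) labelled Ifnar1 -/-. All 3 belonged to the 5 libraries with high Ebf1. Mcpt8 exceeded Cma1 per kilobase only in library 3 labelled Ifnar1 -/-, at 83.8 against 38.1 CPM per kb.

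Markers of eosinophils and neutrophils, other granulocytes, were read beside them. The summed level of 8 neutrophil genes, among them Ngp and S100a8, ran from 215 to 5462 CPM under the label Ifnar1 +/- and from 2.94 to 29724 CPM under the label Ifnar1 -/-. Library 4 labelled Ifnar1 -/- had the least of Ngp (0.147 CPM), S100a8 (1.40 CPM), Prg2 (0.147 CPM) and Prss34. Library 2 labelled Ifnar1 -/-, with the most Ngp (24006 CPM) and Prg2, had 9.22 CPM of Prss34. The summed level of 9 eosinophil genes ran from 31.2 to 1858 CPM under the label Ifnar1 +/- and from 68.0 to 64887 CPM under the label Ifnar1 -/-. The part of these cells in the levels of the 8 genes was not tested.

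Fcer1a encodes the IgE-binding alpha subunit of the high-affinity IgE receptor (ENSMUSG00000005339, chr1:173221284-173227214). It spanned 28.8 to 2607 CPM, with a median of 297 CPM, in the libraries labelled Ifnar1 +/-. The libraries labelled Ifnar1 -/- had 59.3, 12.4, 14.9, 1999 and 212 CPM. Library 1 labelled Ifnar1 +/- and library 4 labelled Ifnar1 -/- were far above the rest, and the 2 lowest were libraries 2 and 3 labelled Ifnar1 -/-. Means were 689 ± 989 CPM (SD, n = 6) and 459.5 ± 864 CPM (SD, n = 5). The log2 fold change of -0.58 had a standard error of 1.46 (edgeR adjusted p = 0.9998; exact permutation p = 0.4004), and it moved to 0.59 without library 1 labelled Ifnar1 +/- and to -3.21 without library 4 labelled Ifnar1 -/-.

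Ms4a2 encodes the beta subunit, which amplifies signalling from the same receptor (ENSMUSG00000024680, chr19:11615523-11623719). Its lowest, median and highest levels under the label Ifnar1 +/- were 9.85, 96.3 and 501 CPM. Under the label Ifnar1 -/- they were, in library order, 109.8, 3.86, 6.72, 517 and 154 CPM. The genotype means were nearly equal, at 158.5 ± 189 CPM (SD, n = 6) and 158.3 ± 211 CPM (SD, n = 5). A log2 fold change of -0.0013 with a standard error of 1.24 was fitted (edgeR adjusted p = 0.9999; exact permutation p = 0.721), an error wide enough to leave large changes in either direction undetected. It moved to 0.82 without library 1 labelled Ifnar1 +/- and to -1.21 without library 4 labelled Ifnar1 -/-.

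The subunits did not keep a fixed proportion. The ratio of Fcer1a to Ms4a2 CPM ran from 0.54 in library 1 labelled Ifnar1 -/- to 7.45 in library 4 labelled Ifnar1 +/-. Per kilobase of exon, mean Fcer1a was the highest of the 8 genes under both labels, at 690 ± 991 (SD, n = 6) and 460.5 ± 866 (SD, n = 5) CPM per kb, and mean Ms4a2 was 56.3 ± 67.1 and 56.3 ± 75.0 CPM per kb. Cma1, Cpa3 and Hdc followed Fcer1a with means between 183 and 570.2 CPM per kb, and Prss34, Ms4a2, Mcpt8 and Tpsb2 lay between 4.60 and 60.4. SDs within each label were close to or larger than these means. The order is of means only, and whether neighbours in it differed within libraries was not tested.

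Hdc encodes histidine decarboxylase, which makes histamine from histidine (ENSMUSG00000027360, chr2:126593667-126619299). It reached 4664 CPM under the label Ifnar1 +/-, with a median of 779.9 CPM and a lowest value of 76.1 CPM. The libraries labelled Ifnar1 -/- had 893, 1551, 91.7, 2961 and 347 CPM. All 5 libraries with high Ebf1 were among the 5 lowest for Hdc, and they came from both genotypes. Library 2 labelled Ifnar1 -/-, which was the lowest of 11 for Fcer1a and Ms4a2, ranked 4th for Hdc. Means were 1679 ± 2029 CPM (SD, n = 6) and 1169 ± 1148 CPM (SD, n = 5). Between genotypes, the log2 fold change was -0.52 with a standard error of 1.196 (edgeR adjusted p = 0.9998). Mean log2(CPM + 1) went the other way, from 9.01 under the label Ifnar1 +/- to 9.38 under the label Ifnar1 -/-, a difference of 0.37 that did not pass the exact permutation test (p = 0.803). The edgeR value was -1.23 without library 4 labelled Ifnar1 -/- and 0.11 without library 1 labelled Ifnar1 +/-.

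No member of the set differed between genotypes at an adjusted p under 0.05, and the share of all tested genes that did was 0.0%. DESeq2 and limma-voom also called none of the 8, and 1 of the 8 had an unadjusted edgeR p under 0.05. Groups overlapped for all 8, and 0.124% of all tested genes, 18 in number, had groups that did not overlap. The fitted value was lower under the label Ifnar1 -/- for 8 of the 8, with a median log2 fold change of -0.55, while 51.7% of all tested genes were lower, with a median of -0.01. Mean log2(CPM + 1) was lower for 7 of the 8, Hdc being the exception. The 8 genes share their libraries, and the median of the 8 ranged from -1.73 to -0.03 when 1 library at a time was left out. With limma-voom and quality weights only 3 of the 8 were lower and the median was 0.32. Two-sided exact permutation tests of each gene, whose smallest possible p was 0.00216, gave p between 0.177 for Tpsb2 and 0.803 for Hdc.

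**Figure D2:**
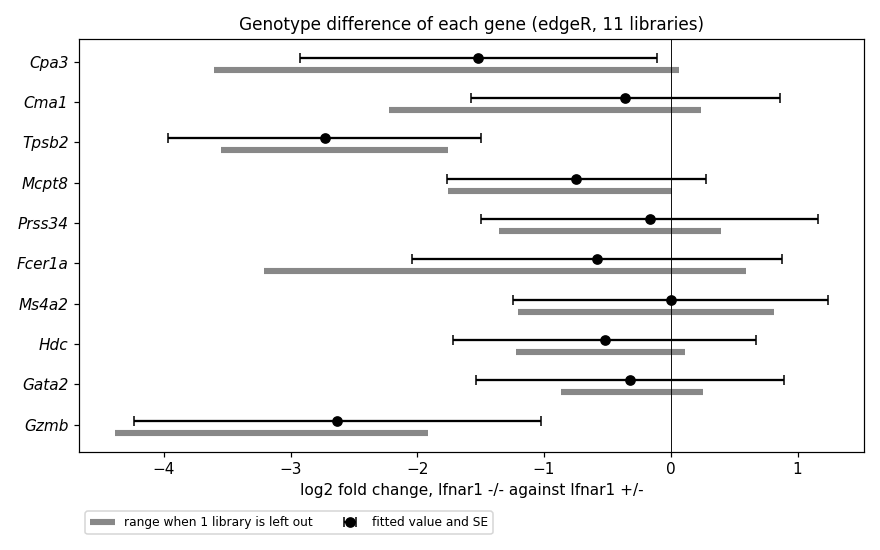
Log2 fold change, Ifnar1 -/- against Ifnar1 +/-, of each of the 8 genes, Gata2 and Gzmb from edgeR over 11 libraries, with its standard error. Grey bars give the range of the fold change when 1 library at a time was left out. The leave-one-out values of Tpsb2 stay between -3.55 and -1.76 and those of Cpa3 spread from -3.60 to 0.067.

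Gata2 (ENSMUSG00000015053, chr6:88193891-88207032) was lowest at 5.37 CPM, 127 CPM at the median and highest at 498 CPM under the label Ifnar1 +/-. Under the label Ifnar1 -/- it stood at 241, 91.7, 5.07, 338 and 73.0 CPM. The 5 libraries with high Ebf1 held the 5 lowest Gata2 levels, between 5.07 and 73.0 CPM, in both genotypes. Its fold change between genotypes was -0.32 on the log2 scale, with a standard error of 1.22 (edgeR adjusted p = 0.9998), and it was 0.26 without library 1 labelled Ifnar1 +/-. Mean log2(CPM + 1) differed in the opposite direction, by 0.40, from 5.93 under the label Ifnar1 +/- to 6.33 under the label Ifnar1 -/- (exact permutation p = 0.799).

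Of the 16 relations of the 8 genes with Gata2 and Gzmb, 9 passed an adjusted p of 0.05. The share of all tested genes that would pass with Gata2 or Gzmb was not computed. The count therefore does not show a trait particular to these 8 genes. Hdc had the highest correlation with Gata2. Over the 11 libraries, Pearson's r of log2(CPM + 1) was 0.96 (permutation p = 5e-05, Benjamini-Hochberg adjusted over 16 relations 0.00048), Spearman's rho was 0.91 (permutation p = 0.00027), and r without the 2 libraries farthest from the median of Gata2 was 0.95. Ms4a2 came next, with r of 0.79 (permutation p = 0.00617, adjusted 0.0165), rho of 0.81 (permutation p = 0.00408) and r of 0.68 without those 2 libraries. Fcer1a and Cpa3 had r of 0.70 and 0.67 (permutation p = 0.0228 and 0.0261, adjusted 0.0464 for each) and rho of 0.74 and 0.68 (permutation p = 0.0128 and 0.0245). The same 2 libraries were number 5 labelled Ifnar1 +/- and number 3 labelled Ifnar1 -/-. Without them, r was 0.56 for Fcer1a (exact permutation p = 0.119) and 0.61 for Cpa3 (exact permutation p = 0.0854). Neither gene then reached 0.05 over the 9 libraries left. Fewer libraries also raise p, and leaving out other pairs was not tried.

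The other 4 genes did not pass the threshold with Gata2. Cma1 had r of 0.63 (permutation p = 0.0418, adjusted 0.0668), Tpsb2 0.29, Mcpt8 -0.10 and Prss34 -0.44 (permutation p = 0.176, adjusted 0.235). Low Gata2 and high Ebf1 occurred in the same 5 libraries, so over all 11 a relation with Gata2 and a difference between these sets of libraries cannot be told apart. Within the 6 libraries with low Ebf1, r with Gata2 was 0.96 for Ms4a2, 0.91 for Cpa3 and 0.87 for Fcer1a (exact permutation, adjusted p = 0.0489 for each), 0.64 for Hdc (adjusted p = 0.220) and 0.34 for Prss34. By rank, none of Ms4a2, Cpa3, Fcer1a and Hdc reached 0.05 there, with rho of 0.83 for each (exact permutation p = 0.0583, unadjusted). Tpsb2 had the highest rho with Gata2 there, 0.89 (exact permutation p = 0.0333, unadjusted). Its r was 0.69 (exact permutation, adjusted p = 0.184). Cma1 had r of 0.85 (exact permutation, adjusted p = 0.125) and rho of 0.60. Library 2 labelled Ifnar1 -/- had the least Gata2 of those 6 libraries, at 91.7 CPM. It also had their least Cpa3 (33.9 CPM), Fcer1a (12.4 CPM) and Ms4a2 (3.86 CPM). The 5 libraries with high Ebf1 were too few for a value.

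**Figure D3:**
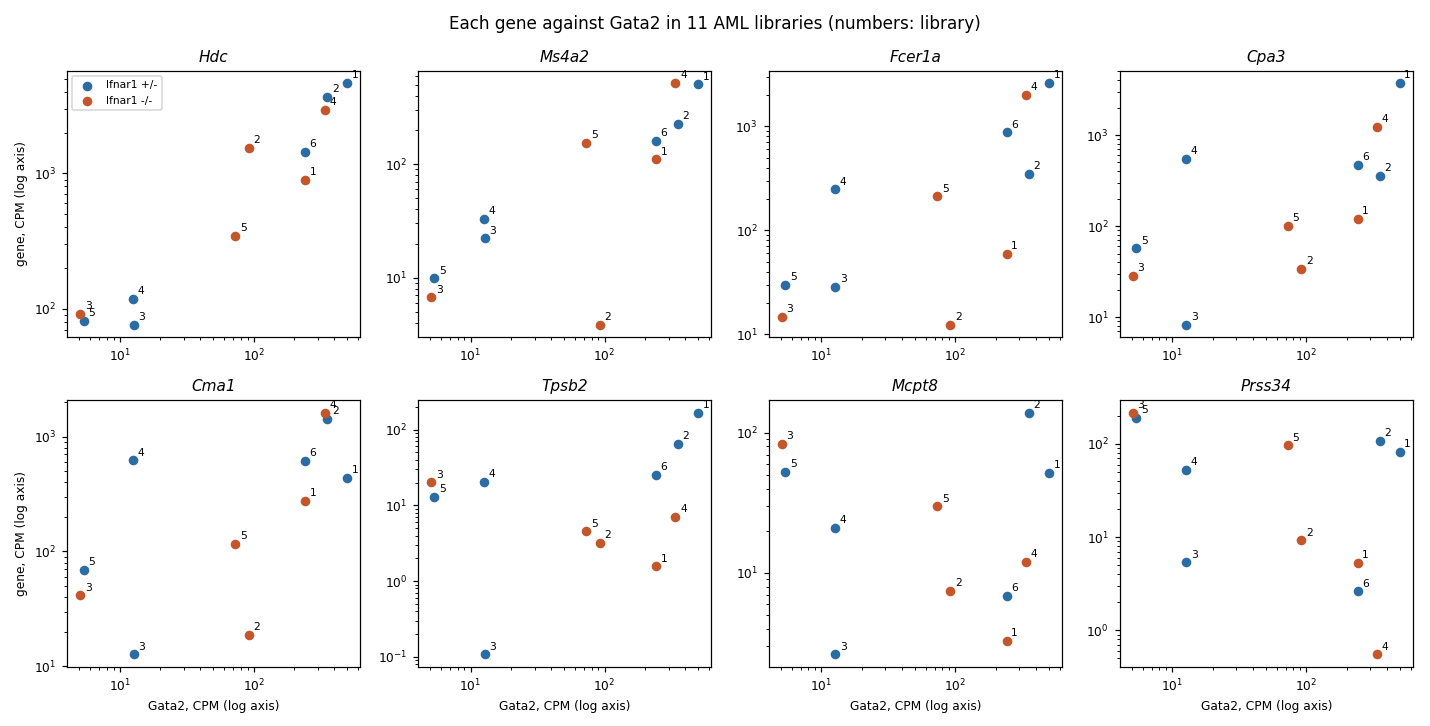
Level of each of the 8 genes against Gata2 in the 11 libraries, both in CPM on log axes, with colour for the genotype label and numbers for libraries. Hdc rises along with Gata2 (r of 0.96), and Prss34 does not (r of -0.44), its highest library being the one with the least Gata2.

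Gzmb (ENSMUSG00000015437, chr14:56258838-56262260) encodes granzyme B and lies in the same gene cluster as Cma1 and Mcpt8, 174 kb from the latter. Under the label Ifnar1 +/- its lowest, median and highest levels were 7.57, 740.4 and 6240.03 CPM. The libraries labelled Ifnar1 -/- had 188, 14.8, 15.7, 1299.6 and 185 CPM. Libraries 1 and 6 labelled Ifnar1 +/- were the highest, and library 5 of the same label was the lowest of all 11, so the groups overlapped. The log2 fold change was -2.63 with a standard error of 1.61 (edgeR adjusted p = 0.9998; exact permutation p = 0.301).

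Fcer1a, Ms4a2, Cpa3 and Cma1 followed Gzmb across libraries. Pearson's r with Gzmb was 0.93 for Fcer1a (permutation p = 6e-05, adjusted 0.00048; rho 0.93, permutation p = 0.00011) and 0.89 for Ms4a2 (permutation p = 0.00042, adjusted 0.00224; rho 0.89, permutation p = 0.0006). It was 0.84 for Cpa3 (permutation p = 0.00165, adjusted 0.0066; rho 0.86, permutation p = 0.00106) and 0.79 for Cma1 (permutation p = 0.00557, adjusted 0.0165; rho 0.77, permutation p = 0.00745). Without libraries 1 and 6 labelled Ifnar1 +/-, the 2 farthest from the median of Gzmb, r was 0.90, 0.91, 0.77 and 0.84 for these genes in the same order.

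Hdc was more loosely tied to Gzmb than to Gata2 in these values, with r of 0.69 (permutation p = 0.0245, adjusted 0.0464; rho 0.69, permutation p = 0.0229) and 0.58 without those 2 libraries (exact permutation p = 0.103). The difference between these correlations was not tested. Tpsb2 had r of 0.52 with Gzmb (permutation p = 0.102, adjusted 0.148), Mcpt8 0.0032 and Prss34 -0.32 (permutation p = 0.336, adjusted 0.413). In the 6 libraries with low Ebf1, r with Gzmb was 0.94 for Fcer1a and 0.90 for Cpa3 (exact permutation, adjusted p = 0.0489 for each). There Ms4a2 (0.88, exact permutation adjusted p = 0.0815) and Cma1 (0.80, exact permutation adjusted p = 0.125) did not pass. Of 8 T and NK cell genes read beside Gzmb, 5 failed the low-count filter, among them the defining genes Cd3e (at most 0.357 CPM), Cd8a (at most 0.130 CPM) and Ncr1 (at most 0.227 CPM). Nkg7, Prf1 and Klrb1c passed it. Prf1, which encodes perforin, ran from 1.85 to 38.3 CPM under the label Ifnar1 +/- and from 0.223 to 1.94 CPM under the label Ifnar1 -/-. Its log2 fold change of -3.76 did not pass in edgeR (adjusted p = 0.9998) and passed in DESeq2 (adjusted p = 0.0060). Klrb1c, an NK receptor gene, reached at most 60.1 CPM. Summed over the 8 genes the range was 28.8 to 649.7 CPM under the label Ifnar1 +/- and 7.15 to 443 CPM under the label Ifnar1 -/-, most of it Nkg7 (5.88 to 637 CPM).

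**Figure D4:**
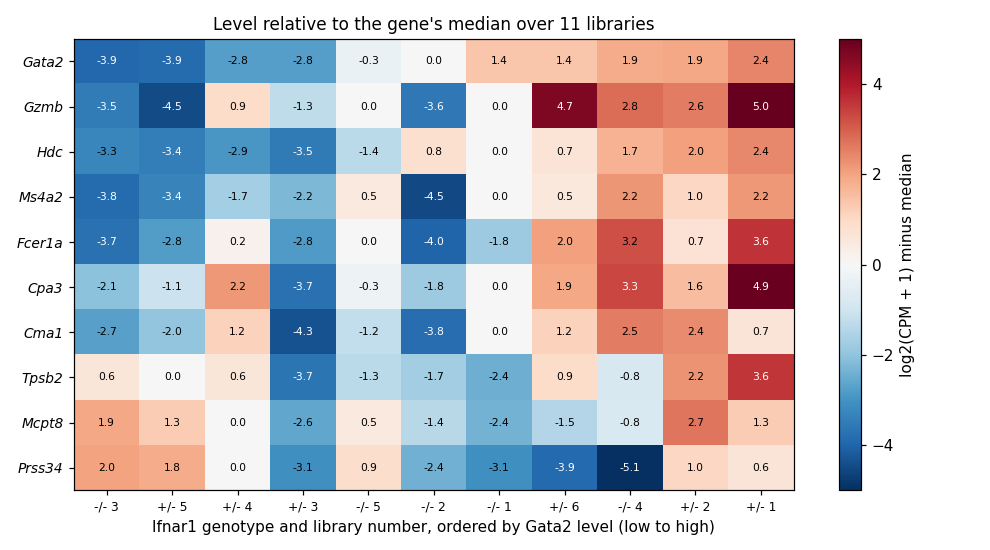
Level of the 8 genes, Gata2 and Gzmb relative to each gene's median over 11 libraries, as a log2 difference in colour, with libraries in columns ordered from low to high Gata2 and labelled with genotype and number. Library 4 labelled Ifnar1 -/- has high Cma1 (1616 CPM) and the lowest Prss34 (0.552 CPM), and library 3 of the same label has the most Prss34 (217 CPM) and low Cpa3 (28.3 CPM).

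The genes whose levels were most like a member's were taken from 8198 tested genes with at least 10 CPM on average, by Pearson's r of log2(CPM + 1) over the 11 libraries, as a description without a test. For Cpa3 they were Il1rl1 (r of 0.97), which encodes the IL-33 receptor of mast cells and basophils, Ahnak2 (0.97), the chemokine gene Ccl2 (0.96), the aminopeptidase gene Anpep (0.95) and Hpgds (0.95), which encodes the haematopoietic prostaglandin D synthase. For Fcer1a they were Crisp1 (0.95), Ccl2 (0.95), Ahnak2 (0.94), Car8 (0.94) and Slc35d1 (0.94). Mcpt8 had no gene as close: its nearest were Eif4a-ps4 (0.80), Cdh1 (0.78), Chchd2 (0.78), Eif4a1 (0.76) and Lpp (0.74). These points share libraries and the same Ebf1 split.

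Other genes of the 2 cell types were read from 5 lists. No gene of any list passed edgeR's test at an adjusted p under 0.05 in either direction, nor at an unadjusted p under 0.05. Of 10 further granule proteases and proteoglycan genes, 5 were tested and all 5 had lower fitted values under the label Ifnar1 -/-, with a median log2 fold change of -0.84. Tpsg1 and Tpsab1, tryptase genes, had mean levels under 2 CPM in both genotypes, and Mcpt4, another mast cell chymase gene, reached at most 1.73 CPM in any library. Srgn, which encodes the granule proteoglycan serglycin, was abundant at 2179.5 ± 2295 CPM (SD, n = 6) and 1969.6 ± 1571 CPM (SD, n = 5).

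Of 13 genes that transmit the IgE receptor signal, 4 had lower and 9 higher fitted values under the label Ifnar1 -/-, with a median of 0.17. Btk, a kinase, had means of 170.5 ± 27.2 CPM (SD, n = 6) and 225.5 ± 55.2 CPM (SD, n = 5) and a log2 fold change of 0.40 with a standard error of 0.20. Fcer1g, the signalling gamma chain shared with other receptors, had 312 ± 274 CPM and 495 ± 457 CPM, and its log2 fold change of 0.67 became -0.01 without library 2 labelled Ifnar1 -/-. Unlike the alpha and beta subunits, these genes are also used by other blood cells.

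Mediator and cytokine genes split into 7 lower and 6 higher of 13 tested, with a median of -0.13. Alox5ap and Alox5, which act in leukotriene synthesis, had log2 fold changes of 1.84 and 1.15, and these became 0.34 and 0.38 without library 2 labelled Ifnar1 -/-, which held 4095 and 2604 CPM. Il13 averaged 3.50 ± 7.12 CPM (SD, n = 6) and 1.08 ± 0.936 CPM (SD, n = 5).

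Growth factor and surface receptors split into 7 lower and 6 higher of 13 tested, with a median of -0.01. Cd200r3, a receptor of basophils and mast cells, ran from 3.06 to 504 CPM under the label Ifnar1 +/- and from 9.22 to 209 CPM under the label Ifnar1 -/-. Its highest libraries were those with the most Cpa3, not those with the most Prss34. Kit, the stem cell factor receptor that mast cells keep, averaged 156.5 ± 218.5 CPM (SD, n = 6) and 103 ± 126 CPM (SD, n = 5), and it is also expressed by progenitors. Itgb7, an integrin gene of mast cell progenitors and lymphocytes, had a log2 fold change of 1.58 with a standard error of 1.07.

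Among 12 tested transcription factors of the lineage, Gata2 included, 4 had lower and 8 higher fitted values, with a median of 0.21. Spi1, which encodes PU.1, had a log2 fold change of 1.41 that became -0.20 without library 2 labelled Ifnar1 -/-, where it stood at 507 CPM. Mitf, which mast cells need, averaged 21.6 ± 34.9 CPM (SD, n = 6) and 12.8 ± 18.4 CPM (SD, n = 5).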

How the data were processed

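Bulk RNA-seq of 11 mouse AML libraries was used, 6 labelled Ifnar1 +/- and 5 labelled Ifnar1 -/-. The deposited table holds the authors' estimated counts per gene; between 10.0% and 11.3% of the values per library are not whole numbers. Tools are listed, per the submitters' processing notes, as bcl2fastq and DRAGEN. Which genome build, annotation and settings they used is not given in the sources used here. In all, 455 rows had a repeated gene ID, and the 287 surplus copies were dropped, leaving 55487 genes.

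Estimated counts were rounded, filtered with filterByExpr and TMM-scaled, and 14521 genes were tested with edgeR 4.0.16 (glmQLFit with robust estimation, quasi-likelihood F-test, Benjamini-Hochberg over all tested genes) in R 4.3.3. The fit was tested on counts simulated with much less spread between libraries than here, where the biological coefficient of variation was 0.78. That test therefore does not show which changes could be detected in these data. Levels are TMM-scaled CPM, and the pseudocount for log2 values was 1 CPM. Symbols were matched by Ensembl ID for 55141 of the 55487 genes, and gene positions and exon lengths are from GENCODE M21 on GRCm38. Permutation tests were exact below 10 libraries and for genotype, and otherwise used 100000 resamples.

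The members and lists were chosen with earlier results of these data known. From each list, up to 4 genes with the smallest p and up to 2 with the highest mean could be named; Cd200r3, Kit, Mitf, Mcpt4 and the markers of other cell types were named as markers, after their values were seen. Alternatives were limma-voom (limma 3.58.1), DESeq2 1.42.0, DESeq2 size factors in edgeR, no filter on low counts, a stricter filter of 5 CPM in 5 libraries, estimation that is not robust, a replicate block and leaving out each library, 18 fits in all. A pseudocount of 0.1 CPM was tried for the tests on log2 values. The split by Ebf1 at 100 CPM, and the relations without library 2 labelled Ifnar1 -/-, were chosen after seeing the data.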

Additional observations from a re-analysis of the deposited data

Results flagged for a closer look

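Among 84 groups of libraries screened, 4 had a value far from the rest of its genotype by Dixon's criterion, and chance flags about 1 in 20 groups. Ctsg, a serine protease gene of the chymase cluster, was at 0.431 CPM in library 3 labelled Ifnar1 +/-, below the other 5. Il13, a type 2 cytokine gene, was at 18.0 CPM in library 2 labelled Ifnar1 +/-, above the other 5. Spi1 and Cebpb, which encode myeloid transcription factors, were at 507 and 23.7 CPM in library 2 labelled Ifnar1 -/-, above the other 4. That library also held the most Prg2 and Ngp. None of the 8 mast cell and basophil genes was singled out in this way.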

How the results depend on the processing

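None of the 10 genes passed an adjusted p of 0.05 in any of the 18 alternative fits. Over all genes, DESeq2 called 3 lower and edgeR 0, with 454 and 289 genes at an unadjusted p under 0.05. Limma-voom turned the log2 fold changes of Cpa3 (0.22), Cma1 (0.50), Fcer1a (0.41), Ms4a2 (1.70), Hdc (1.88), Gata2 (2.60) and Gzmb (0.68) to higher, as the filter of 5 CPM did for Ms4a2 (0.015); the cause was not tested. Replicate numbers were not known to pair the libraries. The deviations of libraries with the same number correlated between -0.55 and 0.58, which cannot show whether they were paired. With the replicate block, 0 genes were called (290 at an unadjusted p under 0.05) and Gata2 (0.47), Cma1 (0.028) and Hdc (0.51) turned to higher.

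With 1 library at a time left out, log2 fold changes ranged from -3.60 to 0.067 for Cpa3, -1.76 to 0.011 for Mcpt8, -1.36 to 0.40 for Prss34, -2.23 to 0.24 for Cma1, -3.21 to 0.59 for Fcer1a, -1.21 to 0.82 for Ms4a2, -1.23 to 0.11 for Hdc, -0.87 to 0.26 for Gata2 and -4.39 to -1.92 for Gzmb. Differences of mean log2(CPM + 1) ranged from -1.37 to 0.31 for Ms4a2, -0.18 to 1.08 for Hdc and -0.25 to 1.34 for Gata2, and the number of genes passing the exact permutation test at an unadjusted p of 0.05 ranged from 0 to 1.

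Of the 16 relations with Gata2 and Gzmb, 9 passed over 11 libraries, 10 without library 2 labelled Ifnar1 -/- and 5 in the 6 libraries with low Ebf1. In those 6, r turned positive for Mcpt8 (0.57) and Prss34 (0.34) with Gata2 and for Prss34 with Gzmb (0.16), and without library 2 labelled Ifnar1 -/- it was -0.10 for Mcpt8 with Gzmb.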

Other observations

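The chromosome 14 cluster that holds Cma1, Mcpt8 and Gzmb was transcribed at few of its genes. Of 15 genes of the cluster, Cma1, Mcpt8, Gzmb and Ctsg passed the low-count filter. Mcpt9 and Gzmn had no count in any library, and Mcpt1 and Mcpt2, which encode proteases of mucosal mast cells, reached at most 2.27 and 1.36 CPM. Granzyme genes next to Gzmb were near 0, with at most 1.05 CPM for Gzmc and 3.27 CPM for Gzmd. On chromosome 17, 4 of 12 genes around the tryptases passed the filter: Prss34, Tpsb2, Tpsab1 and Tpsg1. Prss34 lies 66.1 kb from Tpsb2, and their highest libraries differed: library 3 labelled Ifnar1 -/- for Prss34 (217 CPM) and library 1 labelled Ifnar1 +/- for Tpsb2 (168 CPM). Tpsab1, which lies between them and 20.7 kb from Tpsb2, reached at most 3.42 CPM, also in library 1 labelled Ifnar1 +/-.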
